A study of Homo sapiens with 2 samples.

Results

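The 9 genes described here encode the subunits of the AMPA receptors (GRIA1, GRIA2, GRIA3, GRIA4) and the kainate receptors (GRIK1, GRIK2, GRIK3, GRIK4, GRIK5), the ion channels that carry fast glutamate signals. They were chosen by gene name, and each of the 9 matched 1 of the 62704 genes in both deposited libraries. The first library held whole cells of brain organoids grown from the human embryonic stem cell line H9, and the second held nuclei of such organoids. The cell library mixed control organoids (CO, kit protocol) of days 45, 55 and 70, organoids dissociated at day 45 and reaggregated (DISS) of days 48, 55 and 70, and organoids freed of Matrigel at day 13 and embedded in 3% agarose (CONS) of day 55. The nuclear library is a control experiment that, per the study's methods, took nuclei at day 45 from whole organoids and from organoids dissociated on that day; its treatment label reads Control/Dissociated/Embed. Every barcode of a library carries the same sample name, so each library is 1 sample, and treatments, days and organoids could not be compared. All differences given here are between classes of barcodes within a library, without a test, and their intervals cover counting error only.

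AMPA receptors are tetramers, and the subunits they contain set what passes through the pore: receptors with GRIA2, whose RNA is edited by ADARB1, conduct little calcium, whereas receptors without it are calcium permeable. Kainate receptors are also tetramers, in which GRIK1, GRIK2 and GRIK3 can form channels by themselves and GRIK4 and GRIK5 join them as partners. In the developing cortex, radial glia and intermediate progenitors give rise to excitatory neurons, and the inhibitory neurons that use GABA arise in other regions. GRIA2 is among the neuronal markers that the study used, and neither it nor any other of the 9 genes was used here to build or name a class.

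On GRCh38 with GENCODE v44, the genes on the plus strand were GRIA1 (ENSG00000155511) at chr5:153489615-153813869, GRIA2 (ENSG00000120251) at chr4:157204182-157387146 and GRIA3 (ENSG00000125675) at chrX:123184153-123490915. Also on the plus strand were GRIA4 (ENSG00000152578) at chr11:105609535-105982090, GRIK2 (ENSG00000164418) at chr6:100962701-102081622 and GRIK4 (ENSG00000149403) at chr11:120511746-120988906. On the minus strand lay GRIK1 (ENSG00000171189) at chr21:29536933-29940033, GRIK3 (ENSG00000163873) at chr1:36795527-37034515 and GRIK5 (ENSG00000105737) at chr19:41998321-42070206. A single stretch of sequence is shown, from GRIA2, the AMPA subunit with the largest fold between excitatory neuron-like and progenitor-like barcodes. RE1, the element bound by the repressor REST, is known from the start region of neuronal genes, and it was searched here on both strands as its first part, TTCAGCACC, followed after any 2 bases by its second part, GGACAGC. The whole occurred in 1 of the 14 RefSeq promoter windows (250 bases before to 50 after a start site, GRCh38.p14) that 7 of the 9 genes had, and in 3 of all 35116 windows (0.00854%). The 1 window was that of GRIA2. The match reads on the minus strand and is printed below as it stands on the plus strand at chr4:157220385-157220414, with the searched letters in capitals. The 30 bases lie within 5 annotated transcripts and in 0 annotated exons.
GRIA2 start region: cgaggcGCTGTCCtcGGTGCTGAAaggccg
The first part by itself was found in 0.376% of all windows and the second in 6.03%, and of the 7 genes GRIA2 alone held either of them. The letters CAGATG, an E-box, were in 14.7% of all windows and in none of the 14. GRIA3 and GRIK1 are named only. A match is a description of letters, and REST binding was not measured.

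Of 1303455 barcodes in the cell library 20178 were kept (more than 500 genes, more than 1000 transcripts, at most 20% mitochondrial), with a median of 2615 transcripts and a maximum of 648550, and of 197446 in the nuclear library 14228, with a median of 3890. In the cell library 6574 kept barcodes shared their combination of 3 wells with a barcode of another sub-library (1272 nuclei), and the 2 libraries shared 533 combinations. With the deepest barcode of each combination alone, no call of the 9 genes was lost except that of GRIA4 in excitatory neuron-like nuclei, given below. Barcodes of 10 to 100 transcripts, taken here as a measure of free RNA, carried all 9 genes, GRIA1 at 872 CPM (counts per 1000000 counts of the same barcodes) in the cell library and 1005 in the nuclear library and GRIA2 at 272 and 219, and the share of such RNA in the values below was not tested.

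Classes were named from marker genes, and 11459 of the kept cells and 1707 of the nuclei stayed in no class. Progenitor-like barcodes (3562 cells, 6968 nuclei) summed the radial glia markers SOX2, PAX6, VIM, HES1, HES5, SLC1A3, GLI3, EMX2 and NES to 3490 and 3200 CPM, against 796 and 193 in excitatory neuron-like barcodes. Excitatory neuron-like barcodes (1606 cells, 2451 nuclei) held NEUROD6 at 223 and 117 CPM, against 22.6 and 4.16 in progenitor-like ones, and TBR1 at 125 and 151. The rule used let the inhibitory markers name no whole cluster, whatever share of them passed. Inhibitory neuron-like barcodes were gated one by one instead, outside the progenitor-like, choroid plexus-like and hem-like clusters, by at least 2 counts and 200 CPM over 10 inhibitory markers. Inside those clusters 62 cells and 80 nuclei also passed these thresholds and were left out, so the thresholds by themselves did not single out neurons. The gate held 87 cells, spread over 10 clusters, and 194 nuclei, of which 176 lay in 1 unnamed cluster of 773 nuclei, with NXPH1, GFRA1, EBF1 and GAD1 among its leading genes. That cluster passed for 3 of the 4 inhibitory markers counted in the nuclei (GAD1, GAD2 and DLX6-AS1) as well as for 5 of 7 Cajal-Retzius markers. In the cells, 3 of 5 inhibitory markers also passed in the Cajal-Retzius-like cluster and in 2 unnamed ones. The largest source of the gated cells, with 22 of the 87, was another unnamed cluster of 1421 cells, with PDK1 and HK2 among its leading genes. It passed for 4 of 10 excitatory neuron markers, NEUROD2, NEUROD6, SLC17A7 and SLC17A6, and for 1 of 5 inhibitory ones, GAD1. In 49 of the gated cells and 44 of the gated nuclei the gate rested on exactly 2 counts. GAD1, the GABA-synthesizing enzyme, stood at 262 and 564 CPM and GAD2 at 124 and 262. DLX6-AS1, a long non-coding RNA of the DLX locus and itself one of the gate's markers, stood at 230 and 313 CPM in the gated barcodes, against 0.423 and 0.387 in excitatory neuron-like ones. DLX1, DLX2, DLX5 and DLX6, regulators of forebrain interneurons, reached at most 19.1 in the gated barcodes. SST was at 0 in the gated barcodes of both libraries, and LHX6 was at 0 in the gated nuclei. The name rests on the gate's own markers. Choroid plexus markers moved with the gate: the 9 summed to 808 and 265 CPM in inhibitory neuron-like cells and nuclei, against 360.0 and 91.6 in excitatory neuron-like and 389.8 and 103 in progenitor-like ones. Of these 9, HTR2C stood at 380.5 and 207 CPM in the gated barcodes, OTX2 at 39.4 and 44.8 and TTR at 341 and 7.75, while FOLR1 was at 0 in both and AQP1 and KCNJ13 at 0 in the nuclei. The 9 radial glia markers summed to 1012 and 876 CPM in the gated barcodes, and the 10 excitatory neuron markers to 644 and 412, beside 717 and 1257 for the 11 inhibitory markers. The part of such RNA in the values of the inhibitory class was not tested.

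In all, 6 of the 9 genes, GRIA1 to GRIA4, GRIK2 and GRIK3, were higher past 2-fold in excitatory neuron-like than in progenitor-like barcodes of both libraries. Of all genes tested, those with at least 100 counts in a library, 7.38% were higher past 2-fold in the cells and 10.9% in the nuclei. The median log2 fold over the 9 genes was 1.65 in the cells and 2.2 in the nuclei, against −0.06 and −0.28 over all 24574 and 17309 genes tested. GRIA2 stood at 625 CPM in excitatory neuron-like cells (SD 71.3 between 8 sub-libraries, which is technical) and at 30.2 in progenitor-like cells (SD 7.44), a fold of 20.7 (95% interval 19.3 to 22.1). In the nuclei it stood at 798 and 10.9, a fold of 73.1 (65.4 to 82.0). The size of this contrast, though not its direction, moved with the processing: over the alternatives the log2 fold of GRIA2 ran from 2.98 to 4.73 in the cells (4.37 as given above) and from 4.89 to 6.91 in the nuclei (6.19), lowest with resolution 0.5 in both. GRIA2 stood at 231 and 270 CPM in unnamed clusters of 597 and 1882 cells that passed for radial glia and dividing-cell markers. Its levels did not overlap between the classes over the first-round wells with at least 50000 transcripts of the class, whose contents are not given: excitatory neuron-like cells ranged from 368 to 1181 over 37 wells and progenitor-like cells from 0 to 123 over 41 wells. GRIA1, the subunit with the most counts, was present in both classes, at 1916 CPM (SD 132) and 524 (SD 37.1) in the cells and at 2994 and 477 in the nuclei. Its fold was 3.66 (3.59 to 3.73) in the cells and 6.28 (6.16 to 6.40) in the nuclei, and over wells of the cell library the classes overlapped, with progenitor-like cells reaching 1578. GRIA3 followed the same order at lower levels, 391 against 146 in the cells and 731 against 159 in the nuclei. GRIA4 was low in both, at 27.1 against 8.62 in the cells and 31.3 against 8.91 in the nuclei, and its call was lost under 3 alternatives in the cells and 4 in the nuclei, with folds down to 1.18 in the cells and 1.502 in the nuclei, each with another resolution of the clustering, and 1.59 in the nuclei with the deepest barcode of each well combination.

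**Figure D1:**
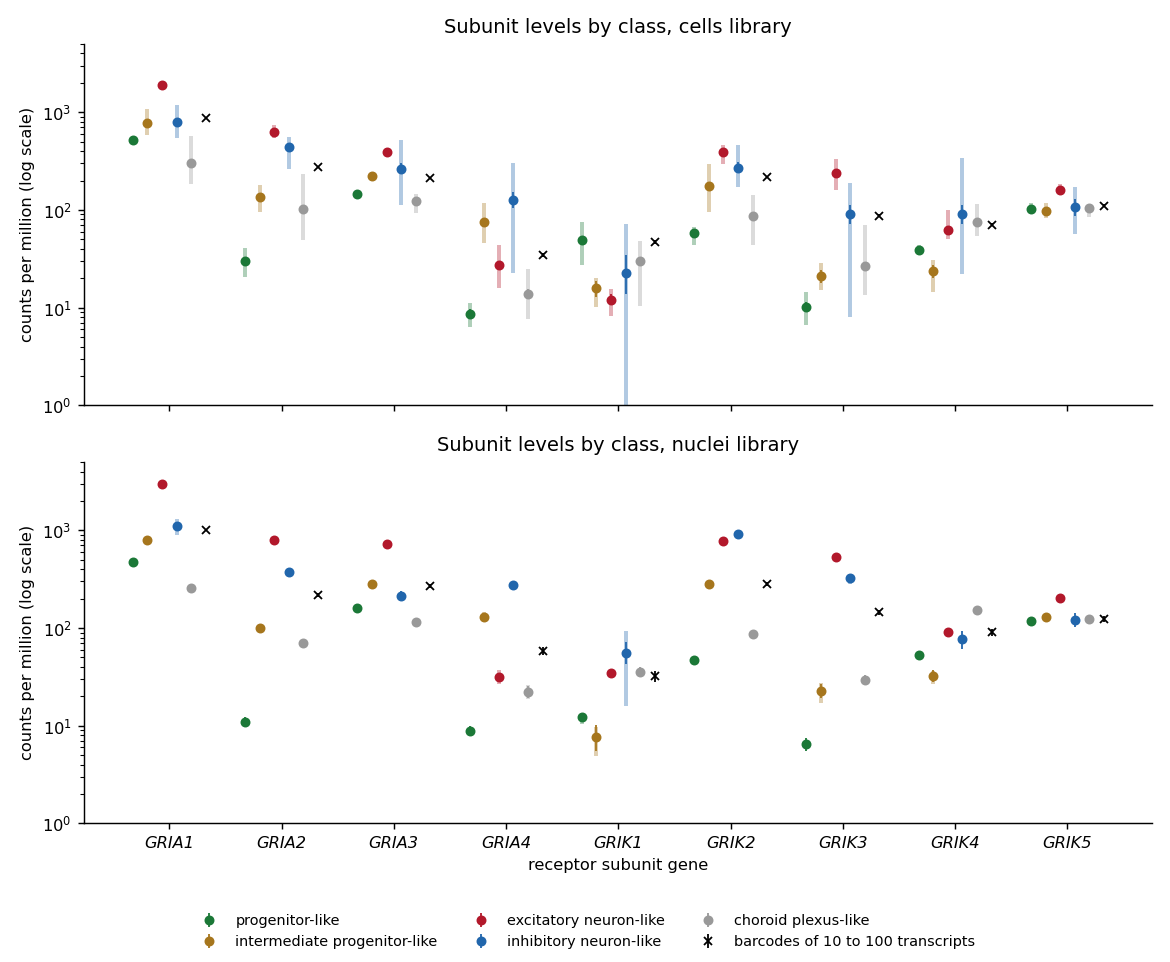
Levels of the 9 subunit genes (CPM, log axis) in 5 classes and in barcodes of 10 to 100 transcripts, with the cell library above and the nuclear library below. Points are summed counts with exact 95% Poisson intervals, and pale bars span the sub-libraries (8 for cells, 2 for nuclei, cut off at 1); GRIA2 in progenitor-like barcodes lies at 30.2 and 10.9, below every other class shown, while GRIK5 lies between 98.6 and 202 in all of them.

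GRIK3 showed the largest contrast of the kainate subunits. It stood at 239 CPM in excitatory neuron-like cells (SD 55.7 between sub-libraries) and 10.3 in progenitor-like cells (SD 2.67), a fold of 23.3 (20.8 to 26.2), and at 529 and 6.45 in the nuclei, a fold of 82.0 (71.0 to 95.3). Over the alternatives its log2 fold ran from 2.93 to 5.17 in the cells and from 5.55 to 6.90 in the nuclei, lowest with resolution 0.5 in both. GRIK2, the most counted kainate subunit in the excitatory and inhibitory neuron-like classes, stood at 392 against 58.7 in the cells, a fold of 6.68 (6.34 to 7.03), and at 772 against 47.6 in the nuclei, a fold of 16.2 (15.3 to 17.2), and its log2 fold in the cells ran from 1.67 to 3.02 over the alternatives. The partner subunits differed less. GRIK4 was 1.60-fold higher in the cells (1.47 to 1.73) and 1.73-fold in the nuclei (1.61 to 1.87), and GRIK5 1.56-fold (1.48 to 1.64) and 1.72-fold (1.63 to 1.81), all short of 2-fold. GRIK1 went in opposite directions, at 12.1 CPM in excitatory neuron-like and 49.0 in progenitor-like cells, but at 34.4 and 12.2 in the nuclei (log2 fold 1.49, and up to 2.34 with resolution 2). It was lower in excitatory neuron-like cells in 8 of 8 sub-libraries and higher in excitatory neuron-like nuclei in 2 of 2. Sub-libraries are technical parts of 1 sample and not replicates. The excitatory neuron-like level in the nuclei came mostly from 1 cluster, of 1338 nuclei, with GRIK1 at 46.3 CPM. The other, of 1115 nuclei, held it at 14.3. A progenitor-like cluster of 170 nuclei, led by PAX3, held GRIK1 at 104, above both. The other progenitor-like clusters of the nuclei held it at 4.47 to 15.6. In the cells, the cluster led by PAX3, of 341 cells, held GRIK1 at 291 but stayed unnamed, so the progenitor-like classes of the 2 libraries differ in content. Of all genes, 9.31% were lower past 2-fold in the cells and 20.2% in the nuclei, where none of the 9 was. The level in progenitor-like cells rested on 1 cluster of 739 cells, led by SV2C and GRIK1 itself, which held GRIK1 at 198 CPM against 10.2 and 17.0 in the other progenitor-like clusters. Without that cluster the log2 fold in the cells moved from −2.02 to −0.11, which is no call. Over wells, progenitor-like cells ranged from 0 to 540 for GRIK1 with a median of 15.7.

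**Figure D2:**
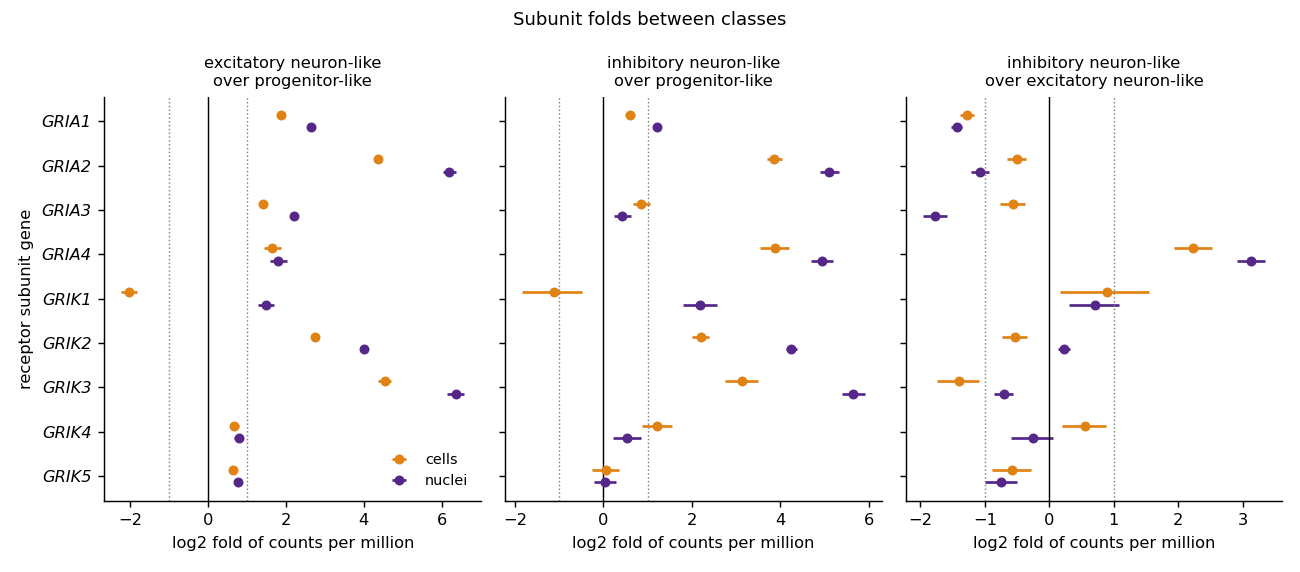
Log2 folds of CPM for the 9 subunit genes in 3 comparisons of classes, cells in orange and nuclei in purple, with exact 95% intervals of the ratio of 2 Poisson counts and dotted lines at 2-fold. GRIA2 and GRIK3 lie farthest to the right in the first panel (4.37 and 4.54 in the cells, 6.19 and 6.36 in the nuclei), and GRIA4 alone lies beyond 2-fold on the right of the third in both libraries.

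Inhibitory neuron-like barcodes differed from excitatory neuron-like ones in which AMPA subunits they carried. GRIA4 was 4.69-fold higher in inhibitory neuron-like cells (127 against 27.1 CPM, interval 3.80 to 5.75) and 8.77-fold higher in the nuclei (275 against 31.3, 7.55 to 10.2). It was the only one of the 9 genes higher past 2-fold in this comparison, in either library, where 19.7% of all genes in the cells and 15% in the nuclei were. In the cells GRIA4 ranged from 22.9 to 300.0 over the 8 sub-libraries of the inhibitory neuron-like class, and was above the excitatory neuron-like class in 7 of them. Of the 113 GRIA4 counts in the gated cells, 55 came from 14 cells of the Cajal-Retzius-like cluster, where GRIA4 stood at 314 CPM. The other 73 cells held it at 81.3, a fold of 3.00 over the excitatory neuron-like class, and among them GRIK1 also passed 2-fold (2.31-fold, 28.03 against 12.1). None of the gated nuclei came from the Cajal-Retzius-like cluster. Over the alternatives its log2 fold ran from 1.55 to 3.13 in the cells and from 2.97 to 4.39 in the nuclei. It was not particular to the gate: the unnamed cluster of 773 nuclei that held 176 of the gated ones had GRIA4 at 363 CPM and GRIA2 at 450 as a whole, above the 275 and 377 of the gated nuclei, and it also passed for RELN, LHX1, EBF2, EBF3 and NHLH2 of the Cajal-Retzius list and for SLC17A6, the vesicular glutamate transporter. GRIA1 was lower in the inhibitory neuron-like class in both libraries, at 793 against 1916 in the cells (fold 0.414, 0.383 to 0.446) and at 1103 against 2994 in the nuclei (fold 0.369, 0.348 to 0.390). Beside it, GRIK3 was lower past 2-fold in the cells (90.1 against 239) and GRIA2 and GRIA3 in the nuclei (377 against 798 and 214 against 731), where 3.8% of all genes in the cells and 7.78% in the nuclei were. The GRIA2 call was lost with each nucleus weighing the same, at a fold of 0.569, and without barcodes of more than 50000 transcripts, at 0.506. GRIK2 was close to the excitatory level in the nuclei, at 908 against 772 (fold 1.18, 1.10 to 1.25, with a log2 fold from −0.14 to 0.81 over the alternatives), and below it in the cells, at 270 against 392 (fold 0.689, 0.604 to 0.784).

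Against progenitor-like barcodes, GRIA2, GRIA4, GRIK2 and GRIK3 were higher past 2-fold in inhibitory neuron-like barcodes of both libraries. The share of all genes higher past 2-fold was 21.4% in the cells and 11.3% in the nuclei. GRIA4 was 14.8-fold higher in the cells (11.7 to 18.5) and 30.8-fold in the nuclei (26.1 to 36.5), and GRIA2 14.6-fold (12.9 to 16.4) and 34.5-fold (29.8 to 40.02). Without the 14 gated cells of the Cajal-Retzius-like cluster the log2 fold of GRIA4 in the cells moved from 3.88 to 3.24. GRIK2 was 4.60-fold and 19.1-fold higher and GRIK3 8.78-fold and 50.2-fold. Over the alternatives the log2 folds of GRIA2, GRIK2 and GRIK3 in the cells ran, in this order, over 2.55 to 4.10, 1.49 to 2.47 and 1.46 to 3.29, and in the nuclei those of GRIA2 and GRIK3 over 3.77 to 5.58 and 4.75 to 5.85. GRIK4 passed 2-fold in the cells alone (2.33-fold, 90.1 against 38.6 CPM), a call lost among barcodes of more than 5000 transcripts (1.78-fold), and GRIA1 in the nuclei alone (2.31-fold), with 1.51-fold in the cells. GRIK5 did not separate the classes, at 107 against 103 in the cells and 121 against 118 in the nuclei. GRIK1 was again split, 4.58-fold higher in the nuclei (56.0 against 12.2) and at a fold of 0.459 in the cells (22.5 against 49.0, from 20 counts), where 6.76% of all genes were lower past 2-fold (13.9% in the nuclei, and none of the 9). Without the progenitor-like cluster led by SV2C its log2 fold in the cells turned from −1.12 to 0.79, and without the 14 gated cells of the Cajal-Retzius-like cluster, which held no GRIK1 count, it was −0.81, short of 2-fold.

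The AMPA subunit mix of progenitor-like barcodes had little GRIA2. In the nuclei GRIA2 was 1.67% of the 19209 AMPA subunit counts of progenitor-like barcodes (exact 95% interval 1.49 to 1.86, SD 0.0745 between sub-libraries), 17.5% of the 58882 counts of excitatory neuron-like ones (17.2 to 17.8) and 19.2% of the 2286 counts of inhibitory neuron-like ones (17.6 to 20.8). In the cells the shares were 4.27% (4.00 to 4.55), 21.1% (20.8 to 21.4) and 27.1% (24.8 to 29.5). The progenitor-like value covers named clusters only, and cells in no class held GRIA2 at 21.3%. Some unnamed clusters of the cells passed for progenitor markers and were not low in GRIA2. The cluster of 1882 cells passed for 5 of 9 radial glia and 8 of 8 dividing-cell markers and held it at 23.9%. That of 597 cells passed for 4 of 9 and 5 of 8 and held it at 20.2%. The progenitor-like share rose to 7.97% with resolution 0.5, 7.43% without the highest doublet scores and 7.78% with at most 10% mitochondrial transcripts in the cells, and to 4.18% with resolution 0.5 in the nuclei. With counts divided by length, GRIA2 took 0.878% (exons) or 2.88% (span) of the AMPA total in progenitor-like nuclei and 10.1% or 27.2% in excitatory neuron-like nuclei, and in the cells 2.29% or 7.25% and 12.4% or 32.0%. Over wells with at least 20 AMPA subunit counts, the progenitor-like share ran from 1.10% to 4.78% in the nuclei and the excitatory neuron-like share from 15.5% to 21.2%, with no overlap; in the cells the ranges were 0.559% to 22.2% and 8.75% to 52.6% and did overlap. Barcodes of 10 to 100 transcripts held GRIA2 at 19.6% of their AMPA subunit counts in the cell library and 14.1% in the nuclear library, above the progenitor-like shares. Intermediate progenitor-like barcodes stood at 11.3% in the cells and 7.58% in the nuclei, where the 2 clusters of the class differed, with 9.40% and 1.90%, the latter close to the progenitor-like share. GRIA4 made up 1.22% and 1.36% of the counts in progenitor-like cells and nuclei, 0.916% and 0.688% in excitatory neuron-like ones, and 7.84% and 14.0% in inhibitory neuron-like ones.

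**Figure D3:**
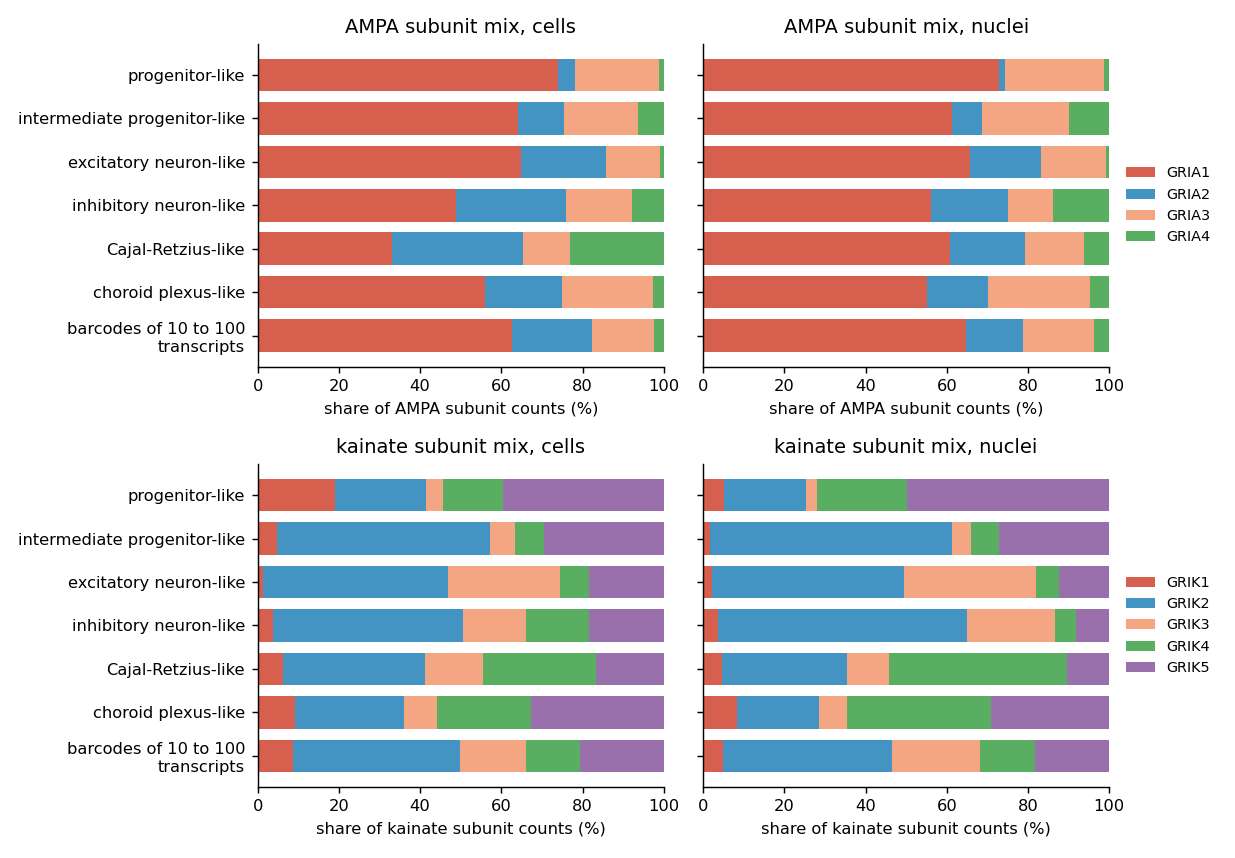
Share of each subunit among the AMPA subunit counts (top) and the kainate subunit counts (bottom) of 6 classes and of barcodes of 10 to 100 transcripts, cells on the left and nuclei on the right. GRIA2 (blue, top) takes 4.27% and 1.67% in progenitor-like barcodes against 21.1% and 17.5% in excitatory neuron-like ones, and GRIK5 (purple, bottom) takes 39.6% and 49.7% against 18.5% and 12.4%.

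The genes differ in length, from 71.9 kb (GRIK5) to 1119 kb (GRIK2), and whether reads from introns were counted is not given in the sources used here, so levels of different subunits were compared per length. Per kilobase of merged exons, GRIA1 had the highest level of the 4 AMPA subunits in progenitor-like, excitatory neuron-like and inhibitory neuron-like barcodes of both libraries, at 246 and 384 CPM per kilobase in excitatory neuron-like cells and nuclei against 60.6 and 113 for GRIA3 and 43.9 and 56.1 for GRIA2. Per 100 kb of genomic span GRIA1 still led (591 and 923), but GRIA2 (341 and 436) stood above GRIA3 (127 and 238), so the order of GRIA2 and GRIA3 in neurons depends on the length used. In progenitor-like barcodes GRIA3 was above GRIA2 on both scales, at 22.6 against 2.12 per kilobase of exons in the cells and 24.6 against 0.768 in the nuclei. Of the kainate subunits, GRIK5 had the highest level per kilobase of exons in progenitor-like barcodes (17.9 and 20.6), and GRIK3 in excitatory neuron-like nuclei (50.4, against 35.3 for GRIK5 and 28.8 for GRIK2). GRIK3 in excitatory neuron-like cells, at 22.8, was below GRIK5 at 27.9. Per 100 kb of span GRIK5, the shortest gene, led in all 3 classes.

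Members of a class were not uniform. The 2 excitatory neuron-like clusters of the nuclei differed in GRIK3, at 752 CPM in the 1338 nuclei with OPCML, CDH7 and GRIK3 itself among the leading genes and at 147 in the 1115 nuclei led by PRDM8, KCNQ5 and SLA. GRIA4 ran the other way between them, at 11.7 and 64.8, and GRIA1 hardly differed, at 2949 and 3061. Among the 3 progenitor-like clusters of the cells, GRIA1 was 1152 in the cluster led by SV2C and 377 and 368 in the other 2. Intermediate progenitor-like barcodes, named from markers such as EOMES and NHLH1, held GRIA4 at 75.9 CPM in the cells (SD 23.4) and 130 in the nuclei, above excitatory neuron-like barcodes of the same library. Within the nuclei this came from 1 of 2 clusters of the class, with 211 against 14.0, and the same cluster had GRIK2 at 459 against 32.1. That cluster passed for 5 of 5 intermediate progenitor markers but also for 6 of 10 excitatory neuron markers, NEUROD2, NEUROD6, TBR1, BCL11B, SLC17A7 and SLC17A6. It passed for 3 of 7 Cajal-Retzius markers as well, EBF2, EBF3 and NHLH2. The other cluster, led by EOMES, passed for 0 of 10 and 1 of 7. Cajal-Retzius-like barcodes (146 cells, 109 nuclei), early neurons that secrete reelin, had the highest GRIK4 of any class, at 224 and 548 CPM, and in the cells also the highest GRIA4, at 210, against 127 in inhibitory neuron-like cells. Their GRIK4 in the nuclei ran from 263 to 850 over 7 wells and the excitatory neuron-like class from 53.3 to 153 over 12, with no overlap. In the cells the ranges, 59.9 to 473 over 10 wells and 7.17 to 175 over 37, overlapped. Wells of other classes are not compared here, and choroid plexus-like nuclei held GRIK4 at 121 and 207 CPM by cluster.

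**Figure D4:**
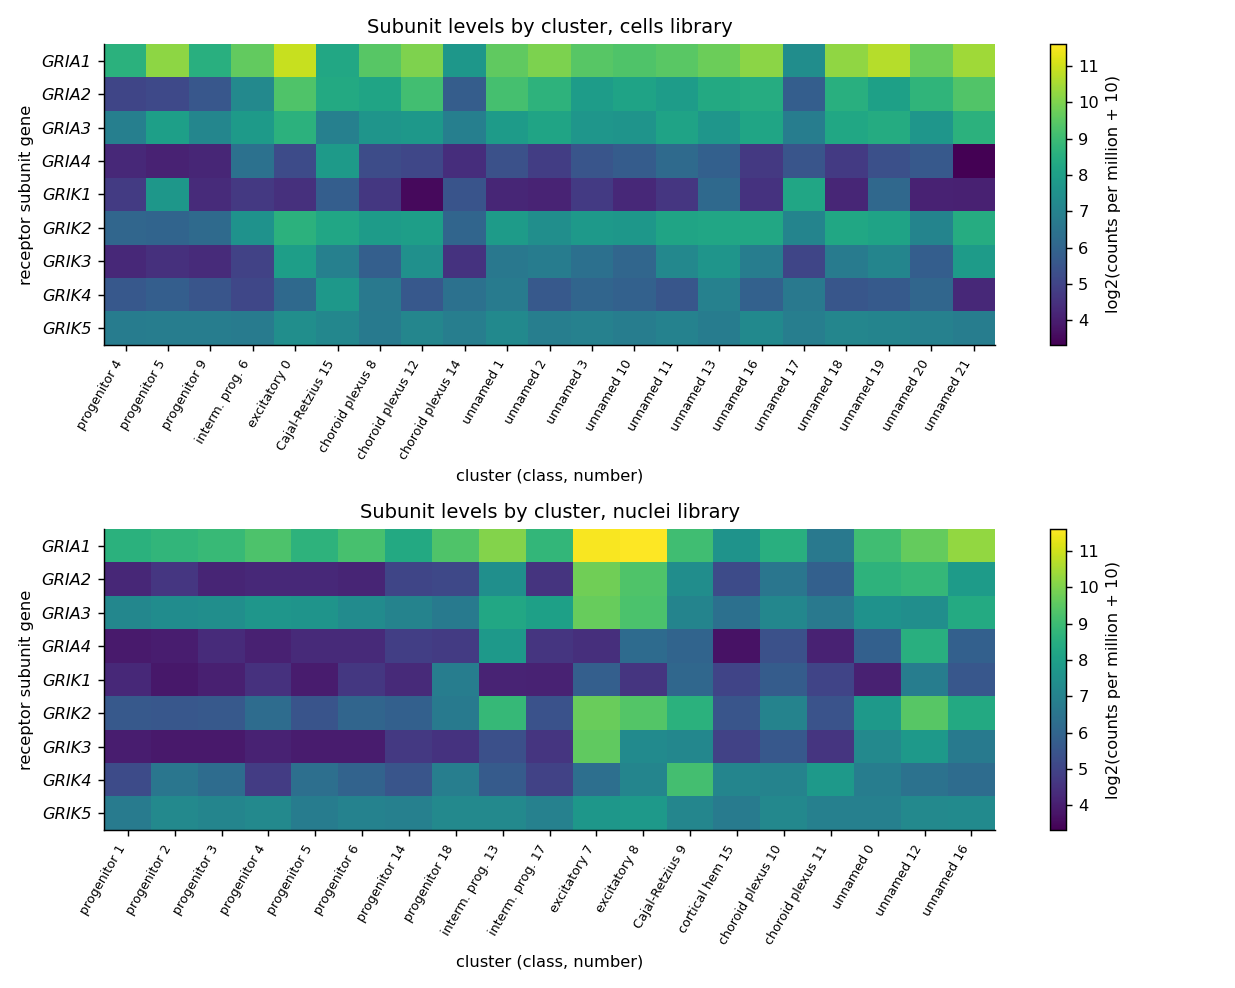
Levels of the 9 subunit genes, as log2 of CPM plus 10, in the clusters of at least 100 barcodes, cells above and nuclei below, ordered by class. GRIA2 is dark in every progenitor-like cluster (at most 37.4 CPM in the cells and 24.9 in the nuclei), GRIK3 is bright in excitatory cluster 7 of the nuclei (752), and GRIK1 stands out in progenitor cluster 5 (198) and unnamed cluster 17 (291) of the cells. In the nuclei GRIK1 is highest in progenitor cluster 18 (104) and unnamed cluster 12 (103).

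The share of barcodes with at least 1 count was set on 1 depth by thinning each barcode to 1000 transcripts, and was read against the choroid plexus-like class, a secretory epithelium that is not neuronal. GRIA1 was found in 35.5% of progenitor-like cells (76.2% without thinning) and 32.5% of nuclei (62.5%), above the 29.2% and 9.45% of choroid plexus-like barcodes. GRIA2 was found in 2.70% of progenitor-like cells and 1.19% of nuclei, below the 12.4% and 3.72% of the choroid plexus-like class, so it is not read as expression in progenitor-like barcodes, and the part of free RNA in it was not tested. GRIA4, GRIK3, GRIK4 and GRIK5 in progenitor-like barcodes of both libraries were also at or below the choroid plexus-like share. For GRIK4 that share is no measure of background, since choroid plexus-like nuclei held GRIK4 at 154 CPM, against 90.3 in barcodes of 10 to 100 transcripts. GRIA3 was above it in the nuclei (13.1% against 6.43%), while the intervals overlapped in the cells (12.6% against 13.1%). GRIK2 was below it in the cells (5.47% against 11.8%), while the exact binomial intervals overlapped in the nuclei (4.03%, 3.58% to 4.52%, against 3.82%, 2.72% to 5.20%). GRIK1 was below it in the nuclei (0.689% against 2.71%), and its intervals overlapped in the cells (3.14%, 2.60% to 3.77%, against 2.43%, 1.86% to 3.11%). In excitatory neuron-like barcodes GRIA1 was found in 81.4% of cells and 85.4% of nuclei and GRIA2 in 45.0% and 50.4%. GRIA4 was found in 19.1% of inhibitory neuron-like nuclei (13.8% to 25.3%, exact binomial) but in 4.60% of cells (1.27% to 11.4%), 4 of 87. In excitatory neuron-like barcodes it was found in 2.45% of nuclei (1.87% to 3.14%) and 2.80% of cells (2.05% to 3.73%). The intervals of the neuron classes thus overlapped in the cells and not in the nuclei. Median depths were 5814 and 3524.5 transcripts for progenitor-like and 2380 and 6676 for choroid plexus-like cells and nuclei. The choroid plexus-like cells were uneven: their largest cluster held GRIA2 at 43.9 CPM and the next at 274, with a median of 1374 transcripts, while the progenitor-like clusters held 23.1 to 37.4. GRIA1 was uneven too, at 197, 684 and 1022 CPM in the choroid plexus-like clusters of 1285, 1058 and 129 cells. The progenitor-like clusters held GRIA1 at 368 to 1152, so the 2 ranges overlapped.

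The partners of these receptors were counted from lists of named genes, by the same 2-fold and beside the same shares of all genes. Of 14 auxiliary subunits, 8 were higher past 2-fold in excitatory neuron-like than in progenitor-like cells and 12 in nuclei, and none was lower. The share of all genes higher in this comparison was 7.38% in the cells and 10.9% in the nuclei. SHISA6, which slows receptor desensitization, was 6.89-fold higher in the cells and 31.1-fold in the nuclei, and CACNG2 (stargazin), which brings receptors to the membrane, 4.93-fold and 15.1-fold. FRRS1L, which takes part in receptor assembly, was 3.67-fold and 11.3-fold higher. Between the neuron classes, 2 of the 14 were higher past 2-fold in inhibitory neuron-like barcodes of each library and 1 was lower. Of all genes, 19.7% in the cells and 15% in the nuclei were higher, and 3.8% and 7.78% lower. SHISA6 was lower in inhibitory neuron-like barcodes (25.9 against 113 CPM in the cells, 82.7 against 275 in the nuclei), and CACNG2 higher (46.2 against 17.4 and 75.8 against 26.8). FRRS1L, at 66.4 against 42.9 CPM in the cells and 90.4 against 70.7 in the nuclei, was short of 2-fold. All 3 pentraxin genes, whose proteins cluster AMPA receptors at synapses, were higher in excitatory neuron-like barcodes of both libraries, with NPTX1 16.2-fold in the cells and 33.7-fold in the nuclei, NPTX2 6.09-fold and 4.97-fold and NPTXR 3.60-fold and 7.82-fold. Of the kainate receptor auxiliary proteins, 2 of 3 measured in the cells and 1 of 2 in the nuclei were higher and none was lower. NETO1, one of them, was 3.05-fold and 4.08-fold higher, at levels of 5.59 and 4.87 CPM. Of the 6 trafficking and scaffold genes, none was higher in the cells and 1 in the nuclei, and 1 and 2 were lower, beside 9.31% and 20.2% of all genes. GRIP2, which binds the tails of GRIA2 and GRIA3, was lower in excitatory neuron-like barcodes of both (fold 0.442 and 0.117). Of the 3 adenosine deaminases acting on RNA, 1 was higher and none lower in each library. ADARB1, the enzyme that edits GRIA2 RNA, was 3.82-fold and 5.59-fold higher in excitatory neuron-like barcodes, at 141 and 249 CPM. In inhibitory neuron-like barcodes ADARB1 was 2.32-fold and 2.86-fold above progenitor-like ones. ADARB2, a relative without known editing activity, was 5.59-fold and 11.3-fold higher in inhibitory than in excitatory neuron-like barcodes (856 against 153 and 1278 against 113). It was also among the leading genes of the unnamed cluster that held 22 of the 87 gated cells.

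Genes with the most similar pattern were taken from Pearson's r of log2 (CPM plus 10) over the 42 clusters of both libraries, centred within each library, among 17307 genes. The clusters share libraries and depth, so r is a description. GRIA2 was closest to LRRC7 (r = 0.973), CACNA1E (0.972) and UNC79 (0.946), and of the other 8 subunits to GRIK3 (0.905). GRIK2 was closest to THSD7A (0.952), GAP43 (0.934) and L1CAM (0.932), GRIK3 to MIR137HG (0.961), GABBR2 (0.942) and the unnamed gene ENSG00000286736 (0.935), and GRIA1 to B3GAT1 (0.941), BCL11A (0.919) and SH3GL2 (0.895). GRIA3 was closest to GRIA1 (0.850), KCNH7 (0.845) and NFIB (0.838), GRIA4 to SLC17A6 (0.837), ENSG00000286642 (0.828) and CNTN2 (0.822), and GRIK1 to UNC5C (0.834), SV2C (0.795) and PAX3 (0.716). GRIK4 was closest to RYR1 (0.796), TMEM266 (0.790) and ENSG00000226965 (0.780), and GRIK5 to UBA6-DT (0.834), CACNG8 (0.820) and LINC03022 (0.811). GRIK1 lies opposite BACH1 (28404 counts in the kept cells and 15754 in the nuclei) and GRIK1-AS1, and GRIK5 opposite ZNF574; the sources used here do not say whether strand was used in counting, so reads of such pairs may be shared. GRIK1-AS1 had 150 counts in the kept cells and 78 in the nuclei, against 5009 and 1933 for GRIK1.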

How the data were processed

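Split-pool barcoded RNA was sequenced from whole cells in one library and from nuclei in the other. The authors split the reads by sub-library (8 of cells, 2 of nuclei), aligned and counted them with the Parse pipeline against GRCh38, and deposited unfiltered transcript counts per gene and barcode; whether strand was used is not given in the sources used here. From these counts, barcodes were kept that passed 500 genes and 1000 transcripts and whose mitochondrial share did not exceed 20%. The kept counts sum to 157306492 transcripts in the cells and 72162726 in the nuclei. Barcodes were clustered with scanpy 1.11.5 and leidenalg 0.10.2 (resolution 1, seed 0) on variable genes from which the 9 members and their pathway lists were left out. Scrublet called 0 doublets in both libraries, so none was removed, and the highest scores were left out as an alternative. A call of 0 does not show that doublets were absent. The paper called doublets with another tool, at expected rates of 5% for cells and 3% for nuclei. It also removed contaminating RNA from the cells computationally. Neither step was repeated here. A cluster was named where over 40% of a marker list, and at least 3 markers, were 1.5-fold above the other clusters with 10 counts, 2 of them past 2-fold (for radial glia, counting dividing-cell markers). The list with the highest share gave the name, and Cajal-Retzius also needed RELN and TP73. A cluster stayed unnamed where that list was the inhibitory one, which served the gate only, or one of glia other than radial glia, mesenchyme, endothelium or microglia, and, except for radial glia, where dividing-cell markers passed in a higher share. These naming thresholds and the inhibitory gate were chosen after seeing the data. Counts were summed per class and divided by the class total. Intervals are exact at 95% (Poisson for levels, the ratio of 2 Poisson counts for folds, binomial for shares) and cover counting error only. A gene was called where its fold passed 2. With 1 sample per library no test between conditions was possible and no p-value was computed. The scripts were tested on simulated counts. Named were the 9 members, the 3 genes most like each, and examples from the pathway genes past 2-fold in the same direction in both libraries (at most 3 per list and comparison). The members, lists and markers were chosen with earlier results of these data known. Alternatives covered the clustering, doublet scores, depth, mitochondrial share, weighting, fold and gate. The results of 1 of the pathway lists are not reported here.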

Additional observations from a re-analysis of the deposited data

Results flagged for a closer look

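Barcodes of 10 to 100 transcripts, which are no class of the comparisons and stand beside them as a measure of free RNA, held 66132 counts of the 9 subunit genes in the cell library and 14544 in the nuclear library. GRIK1 had opposite signs between the libraries: its log2 fold of excitatory neuron-like over progenitor-like barcodes was −2.02 in the cells and 1.49 in the nuclei. This difference between the libraries was not tested, and the libraries differ in days and treatments as well as in the kind of RNA.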

How the results depend on the processing

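Of 33 calls of a member past 2-fold, 27 held in every alternative in which they were recomputed. The log2 fold of GRIK1 in inhibitory neuron-like over progenitor-like cells changed sign, to 0.79, without the progenitor-like cluster led by SV2C. The number of members lower in inhibitory neuron-like than in progenitor-like cells went from 1 to 0 without that cluster, where the fold of GRIK1 turned from 0.459 to 1.72. It also went to 0 where that fold stayed below 1, without the highest doublet scores (0.505), without barcodes of more than 50000 transcripts (0.512) and without the gated cells of the Cajal-Retzius-like cluster (0.572). The number lower in excitatory neuron-like than in progenitor-like cells went from 1 to 0 without the progenitor-like cluster led by SV2C. Between the neuron classes, the number higher in the inhibitory class went from 1 to 2 in the cells with 1.5-fold as the limit, with resolution 0.5, without the highest doublet scores and without the gated cells of the Cajal-Retzius-like cluster. In the nuclei it went from 1 to 2 with 1.5-fold and with each barcode weighing the same, and the number lower went from 3 to 5 with 1.5-fold. The GRIA2 share of AMPA subunit counts kept its order, progenitor-like below both neuron classes, in the values given here. In progenitor-like cells it moved from 4.27% to 7.97% (resolution 0.5), 7.43% (doublet scores), 5.26% (more than 2000 transcripts), 7.78% (mitochondrial share at most 10%) and 5.88% (without the SV2C cluster). In excitatory neuron-like cells it moved from 21.1% to 23.3% (resolution 2), 23.6% (members kept among the variable genes), 24.2% (doublet scores), 23.45% (more than 5000 transcripts) and 22.9% (deepest barcode of each well combination). In progenitor-like nuclei it moved from 1.67% to 4.18% (resolution 0.5), 1.46% and 1.15% (more than 2000 and 5000 transcripts) and 2.17% (equal weights). In excitatory neuron-like nuclei it moved from 17.5% to 17.9% and 18.4% (resolution 0.5 and 2), 19.8% (members kept), 19.5% (seed 1), 18.5% (doublet scores), 19.2% and 18.4% (more than 2000 and 5000 transcripts), 19.1% (deepest barcode) and 17.1% (equal weights). In inhibitory neuron-like nuclei it moved from 19.2% to 16.5% (more than 5000 transcripts) and 22.9% (equal weights). The causes were not tested. The alternatives on repeated well combinations, on barcodes of more than 50000 transcripts, on the gate, on the gated cells of the Cajal-Retzius-like cluster and on the SV2C cluster were chosen after seeing the data. No paired analysis was possible because each library is 1 sample and no test was made. GRIK4 in inhibitory neuron-like over progenitor-like cells lost its call among barcodes of more than 5000 transcripts. The inhibitory class in the cells rests on 87 barcodes and as few as 20 counts of GRIK1.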
